A study of Mus musculus with 6 samples.

Results

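The transforming growth factor beta (TGF-beta) and bone morphogenetic protein (BMP) signalling family was examined in corneal epithelium of mice with and without Rela, the gene of the NF-κB subunit p65. Members were chosen by a rule on gene symbols, with earlier results of these data known. The rule took the symbols that start with Bmp, Smad, Gdf, Ltbp, Grem or Smurf and a digit, or with Bmpr, Acvr or Inhb, together with Id1 to Id4, Tgfb1 to Tgfb3, Tgfbr1 to Tgfbr3, Nog and Fst. It found 55 of the 17866 protein-coding genes in the deposited table. RNA-seq had been run on separated corneal epithelium of C57BL/6 mice aged 6 months, with 6 libraries, 3 of wild type (WT) and 3 of Rela-/- (KO) mice. In the study the KO mice were Krt14-Cre; Rela f/f, so that a floxed Rela allele was deleted in cells that use the keratin 14 promoter. These include the epithelia of cornea, limbus, conjunctiva and skin, whereas stromal cells, vessels and leukocytes keep the gene. The alleles of the WT mice are given no further than WT in the labels.

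The ligands of this family are secreted dimers that bind pairs of type I and type II receptor kinases. TGF-beta and activin receptors phosphorylate Smad2 and Smad3, and BMP receptors phosphorylate Smad1, Smad5 and Smad9. Both classes enter the nucleus with the shared partner Smad4, while Smad6 and Smad7 inhibit the pathway and the Smurf ubiquitin ligases remove its components. Latent TGF-beta binding proteins (Ltbp) hold TGF-beta in the matrix until it is released, Fst, Nog and Grem1 trap ligands, and the Id genes are well-known BMP targets that encode inhibitors of basic helix-loop-helix factors. In the cornea, TGF-beta is best known for its roles in wound healing and stromal scarring.

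In the KO epithelium members of the family moved in both directions. Tgfb3, Ltbp1, Bmp2 and the activin and BMP trap Fst rose by over an order of magnitude from low WT levels, and Id1 and Id3 rose. The type I TGF-beta receptor Tgfbr1, its co-receptor Tgfbr3, the signal transducer Smad3, the inhibitor Smad6 and Id2 fell to between 30.6% and 48% of WT. Smad2, Smad5, Bmpr1a and Bmpr2 differed by at most 0.16 on the log2 scale and were not called. Other core components were called, with Smad1 (0.70) and Acvr1 (0.49) higher and Smad4 (-0.32) and Acvr1b (-0.75) lower. Each change was tested with the quasi-likelihood test of edgeR on estimated read counts, with Benjamini-Hochberg adjustment over all 13305 genes that had enough counts.

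Of the 55 members, 41 had enough counts to be tested. At an adjusted p of 0.05, 32 of the 41 (78%) were called, 20 higher and 12 lower in KO. Over all 13305 genes tested 62.0% were called, 31.8% higher and 30.2% lower. Under the limits the study set for a changed gene, an adjusted p up to 0.001 with a fold of 2 or more (study threshold), 14 members (34.1%) were called, 9 higher and 5 lower. The share over all genes was 19.8%, with 11.6% higher and 8.24% lower. The KO libraries lay wholly above or below the WT libraries for 34 members (82.9%), against 68.6% of all genes. The median log2 fold change was 0.49 for the members and 0.01 for all genes, and the median absolute value was 0.99 against 0.53. In 8 tested members (Tgfb2, Tgfb3, Bmp2, Gdf3, Gdf5, Gdf15, Inhba and Fst) the count level that the filter asks for was reached in every KO library but not in every WT library, and 0 members showed the reverse. These 8 could enter the test through their KO level, so the counts above describe the tested members and are not evidence of a direction. The plot of fold changes by role shows the 41 members.

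**Figure D1:**
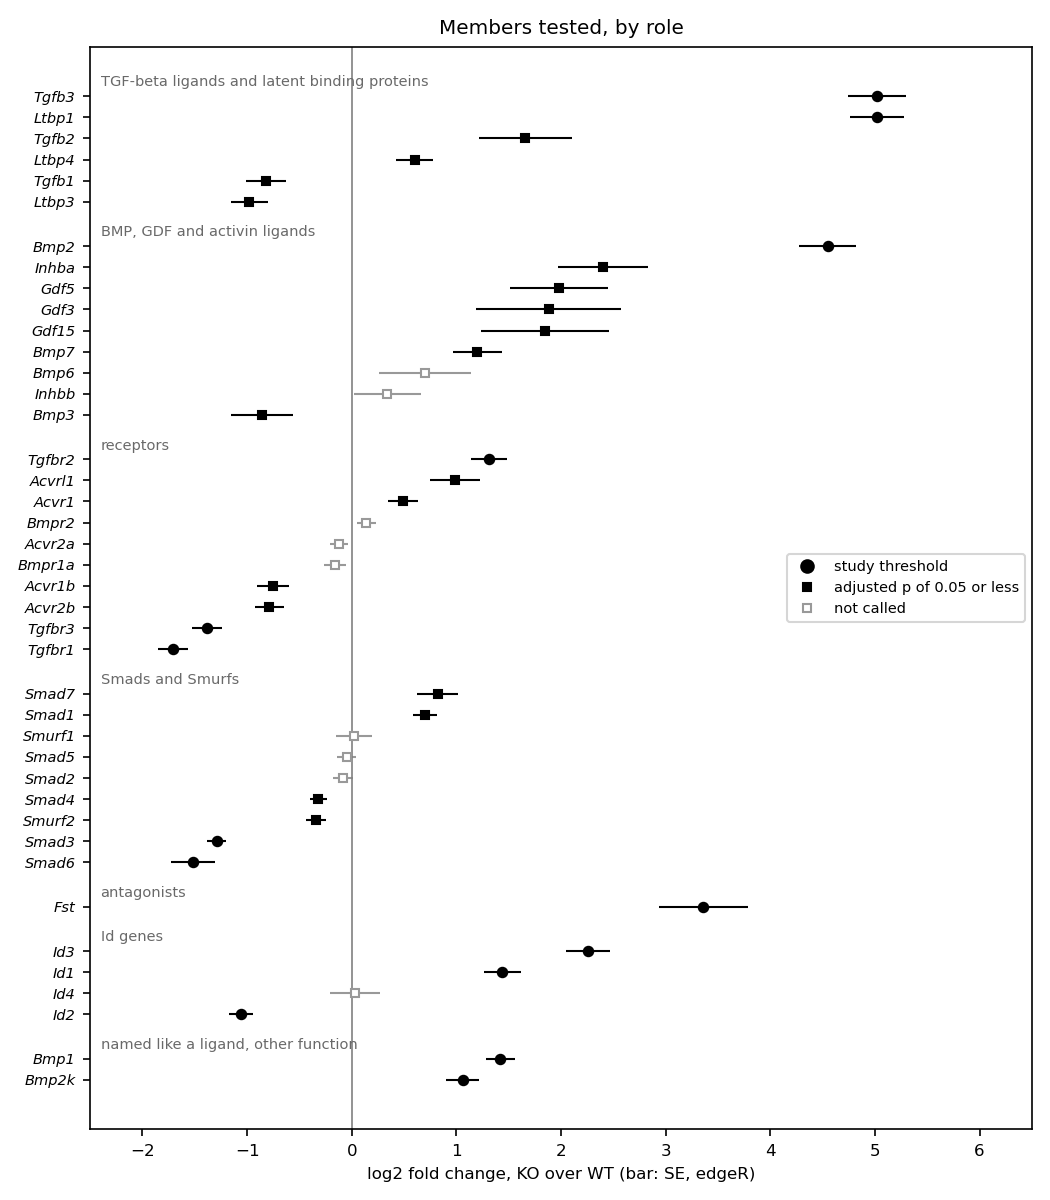
Log2 fold change of KO over WT for the 41 tested members, grouped by role, with horizontal bars for the SE of the edgeR fit (n = 3 libraries per genotype). Filled circles passed the study threshold, filled squares an adjusted p of 0.05, and open squares neither. Tgfb3 and Ltbp1 lie farthest to the right at 5.02 each, and Tgfbr1 farthest to the left at -1.71.

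Library totals were between 20158404 and 20880347 counts, and the family held between 0.1337% and 0.1656% of them. A count of 3 corresponded to between 0.137 and 0.152 CPM, that is counts relative to a library total of 1000000, scaled by the TMM factors. The targeted gene Rela (GRCm38 chromosome 19, 5635891 to 5649631) stood at 1871, 1844 and 1855 counts across WT and at 318, 223 and 313 across KO, which is 16.5% of WT (log2 fold change -2.60, SE 0.141, adjusted p = 2.74e-06, edgeR). Markers of corneal epithelium were abundant in WT and all 7 fell in KO, with summed CPM of 94555 to 97291 in WT and 21896 to 24939 in KO. All 5 epidermal markers rose, from a summed 15.1 to 20.3 CPM to between 11563 and 23959 CPM. The 4 markers of conjunctiva and goblet cells rose as well, from a summed 1873 to 2900 CPM to between 52199 and 66915 CPM. Nearly all of the KO sum was the keratins Krt13 and Krt4, with means of 38248 and 21745 CPM. The goblet cell marker Muc5ac had 0 counts in WT and 141, 15 and 214 in KO, and Krt19 rose 1.73-fold. Both missed the study threshold. Markers of several surface epithelia thus moved with genotype together with the family, and in bulk samples fewer cells of a type and less RNA per cell cannot be told apart.

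Markers of other cell types were low, and several moved with genotype. Leukocyte markers summed to between 28.7 and 33.8 CPM in WT and between 49.8 and 64.5 CPM in KO, and 4 of the 5 tested rose. Most of the WT sum was Cd68, which was not called, and the other 5 markers summed to between 0.512 and 1.51 CPM in WT and between 21.2 and 28 CPM in KO. Keratocyte and fibroblast markers summed to between 13.3 and 16.9 CPM in WT and between 15 and 24.5 CPM in KO. Most of the WT sum was Pdgfra, and without it the sum went from between 0.687 and 2.84 CPM in WT to between 13.6 and 23.5 CPM in KO. These 2 sums without 1 marker were added after the values were seen. Of the 5 keratocyte and fibroblast markers that were tested, Dcn, Col1a1, Col1a2 and Vim rose and Pdgfra fell. The call of Col1a1 (adjusted p = 0.036, edgeR) was lost without KO replicate 2 or 3 and without WT replicate 1 or 3. Dcn and Col1a2 had at most 3 counts in any WT library. Lum was at 0 in all WT libraries and at 2, 4 and 1 counts in KO. Vessel markers summed to between 0.0458 and 0.237 CPM in WT and between 0.81 and 0.897 CPM in KO, where Pecam1 rose and Kdr was at 0 in all WT libraries. The 4 melanocyte markers and the 3 Schwann cell markers summed to 7.47 to 9.66 and 2.05 to 2.79 CPM in WT, and to 5.23 to 5.32 and 0.997 to 1.61 CPM in KO. The part of any of these cells in the changes of the family was not tested.

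Promoter sequences are given for the members whose contrasting changes recur below, because Smad proteins bind short DNA elements near the genes they control, and several members are themselves Smad targets. RefSeq windows of 300 bases, from 250 before to 50 after the transcription start on GRCm38.p6, covered 38 of the 55 members with 46 windows. They were searched on both strands for the palindromic Smad element GTCTAGAC, the short flanked element CAGACA, the BMP-type GC element GGCGCC and the NF-κB consensus. The capitals mark a match on either strand (TGTCTG is CAGACA read from the other strand), and each sequence runs 5′ to 3′ on the strand of its gene. Smad6, an inhibitor of BMP signalling that fell in KO, lies on the minus strand (chr9:64022010-64022309). Id2, a fallen BMP target (chr12:25096043-25096342, minus strand), is set beside the risen Id3 (chr4:136143572-136143871, plus strand). The falling type I receptor Tgfbr1 (chr4:47352972-47353271, plus strand) is set beside its rising type II partner Tgfbr2 (chr9:116175314-116175613, minus strand). The downstream of 2 windows of Ltbp1 (chr17:75178531-75178830, plus strand) is shown for its pair of short elements.
Smad6: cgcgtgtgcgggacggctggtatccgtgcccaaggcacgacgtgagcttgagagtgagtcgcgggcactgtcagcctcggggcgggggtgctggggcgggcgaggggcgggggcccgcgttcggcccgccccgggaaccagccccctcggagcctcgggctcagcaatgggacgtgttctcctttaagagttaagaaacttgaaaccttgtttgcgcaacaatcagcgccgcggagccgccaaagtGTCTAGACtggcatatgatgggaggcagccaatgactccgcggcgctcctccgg
Id2: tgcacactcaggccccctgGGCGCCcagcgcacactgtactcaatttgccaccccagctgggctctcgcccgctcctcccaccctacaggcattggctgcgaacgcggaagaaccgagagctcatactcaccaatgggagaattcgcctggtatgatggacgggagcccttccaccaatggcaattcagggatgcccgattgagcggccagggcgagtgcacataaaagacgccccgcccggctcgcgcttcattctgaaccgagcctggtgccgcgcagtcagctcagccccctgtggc
Id3: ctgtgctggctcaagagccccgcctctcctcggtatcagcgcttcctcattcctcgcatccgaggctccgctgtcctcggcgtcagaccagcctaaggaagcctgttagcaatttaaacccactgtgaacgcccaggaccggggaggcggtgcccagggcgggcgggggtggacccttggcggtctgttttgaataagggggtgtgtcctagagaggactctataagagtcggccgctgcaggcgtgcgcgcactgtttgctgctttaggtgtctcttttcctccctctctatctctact
Tgfbr1: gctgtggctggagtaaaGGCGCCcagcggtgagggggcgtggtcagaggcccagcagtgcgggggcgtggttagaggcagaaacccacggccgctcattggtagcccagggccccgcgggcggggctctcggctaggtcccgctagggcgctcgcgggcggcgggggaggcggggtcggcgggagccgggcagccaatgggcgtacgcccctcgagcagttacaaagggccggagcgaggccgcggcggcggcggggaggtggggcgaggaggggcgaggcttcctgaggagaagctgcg
Tgfbr2: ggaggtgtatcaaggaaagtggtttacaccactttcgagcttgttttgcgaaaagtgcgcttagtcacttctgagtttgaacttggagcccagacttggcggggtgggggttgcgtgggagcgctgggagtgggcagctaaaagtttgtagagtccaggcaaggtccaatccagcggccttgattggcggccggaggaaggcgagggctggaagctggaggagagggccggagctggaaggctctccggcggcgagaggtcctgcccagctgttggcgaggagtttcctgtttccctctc
Ltbp1: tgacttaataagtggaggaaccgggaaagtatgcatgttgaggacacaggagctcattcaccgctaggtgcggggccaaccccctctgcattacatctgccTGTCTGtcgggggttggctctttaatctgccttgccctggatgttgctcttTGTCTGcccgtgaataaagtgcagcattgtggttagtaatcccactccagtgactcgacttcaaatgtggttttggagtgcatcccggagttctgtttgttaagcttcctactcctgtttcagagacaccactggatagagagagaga

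The window of Smad6 held the palindromic element across the transcription start, from base -4 to base 3 counted from the start site as 0. This element occurred in 1 of the 46 member windows (2.17%), in 70 of all 32851 promoter windows (0.213%) and in 0.26% of the windows of tested genes. The GC element was found in 32.6% of member windows, among them Id2 (-231 to -226) and Tgfbr1 (-233 to -228). Its share was 11.9% of all windows and 20% of the windows of tested genes. Windows of other members that fell (Acvr1b, Smurf2), rose (Bmp2k, Ltbp4) or were not called (Bmpr1a, Bmpr2, Smad5, Id4) held it as well. The window of Smad3, which fell, held none of the 4 motifs. Member windows were also richer in G and C, with a median of 65.2% against 52.7% of bases. The short flanked element occurred in 17.4% of member windows, in 21% of all windows and in 16.2% of the windows of tested genes. The downstream Ltbp1 window held it at -149 to -144 and at -98 to -93. A second window of Tgfbr1, which is not printed, held it at -203 to -198. The upstream window of Ltbp1, also not printed, held none of the 4 motifs. The NF-κB consensus was matched in 1 member window (2.17%), that of Gdf7, which had too few counts to be tested, in 4.51% of all windows and in 5.21% of the windows of tested genes. The windows printed for Id3 and Tgfbr2 held none of the 4 motifs. No matches overlapped in the printed windows. Bmp2, Tgfb3, Fst, Id1, Tgfbr3 and Bmp1 were without a window. These matches describe letters in a window and not binding.

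Among the TGF-beta ligands the rare isoforms rose and the common one fell. Tgfb3 (chromosome 12, 86056743 to 86079041) had 5, 4 and 3 counts in the 3 WT libraries, compared with 114, 141 and 117 in KO. It was therefore barely detected in WT and clearly present in every KO library, and its log2 fold change reached 5.02 (SE 0.276, adjusted p = 2.84e-06, edgeR). Its WT level lay near the floor of 3 counts, so the size of the fold rests on few reads. Tgfb1 (chromosome 7, 25687002 to 25705077), the most abundant of the 3 ligands, had estimated counts of 615, 799 and 521 in WT against 343, 274 and 401 in KO. All KO libraries lay under all WT libraries, at 56.8% of WT (log2 fold change -0.82, SE 0.187, adjusted p = 0.00519, edgeR). Tgfb2 rose from between 7.3 and 27 counts to between 38 and 69 counts (log2 fold change 1.66, SE 0.445, adjusted p = 0.0112, edgeR).

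Per gene length the make-up of the ligand pool shifted, and its sum was lower in every KO library than in any WT library. Tgfb1 made up 97.5% to 99.3% of the summed FPKM (fragments scaled to gene length and library total) of the 3 ligands in WT and 71% to 81.6% in KO. The share of Tgfb3 was 0.337% to 0.504% in WT and 15.2% to 23.3% in KO, and that of Tgfb2 was 0.393% to 2.21% and 3.24% to 6.89%. Their summed FPKM was 11.8 to 17.8 in WT and 8.78 to 10.8 in KO. FPKM values of different genes rest on the authors' gene lengths, and they were not scaled by the TMM factors. These factors were 1.012 to 1.054 in WT and 0.9524 to 0.9896 in KO, which bears on the sums but not on the shares. Neither the sums nor the shares were tested.

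Of the latent TGF-beta binding proteins, Ltbp1 went from a minor to a major form. Ltbp1 (chromosome 17, 75005529 to 75392967) stood at 30, 40 and 16 counts across WT and at 727.0, 942.0 and 934 across KO. The gap between the groups was far wider than the spread within either (log2 fold change 5.02, SE 0.257, adjusted p = 2.07e-06, edgeR). Ltbp3 (chromosome 19, 5740904 to 5758532) had 1558.8, 1128.1 and 1167.3 counts in the 3 WT libraries, compared with 742.1, 562.9 and 503.9 in KO. It fell to 50.8% of WT with no overlap (log2 fold change -0.98, SE 0.175, adjusted p = 0.00141, edgeR). Ltbp4 (chromosome 7, 27305140 to 27339709), the most abundant of the 4 by FPKM in all KO libraries and in WT replicate 3, had estimated counts of 1602, 1162 and 1431 in WT against 2479, 1660 and 1766 in KO. Its KO values were all above the WT values, by less than those of Ltbp1 (log2 fold change 0.60, SE 0.176, adjusted p = 0.0163, edgeR). Ltbp2 reached at most 11 counts and was not tested. By FPKM, Ltbp1 was 0.452% to 1.13% of the Ltbp sum in WT and 16.5% to 27% in KO, while Ltbp3 went from 47.7% to 52% down to 17.9% to 21%. The ratio of Ltbp3 to Ltbp1 was 45.7 to 106 in WT and 0.668 to 1.27 in KO.

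**Figure D2:**
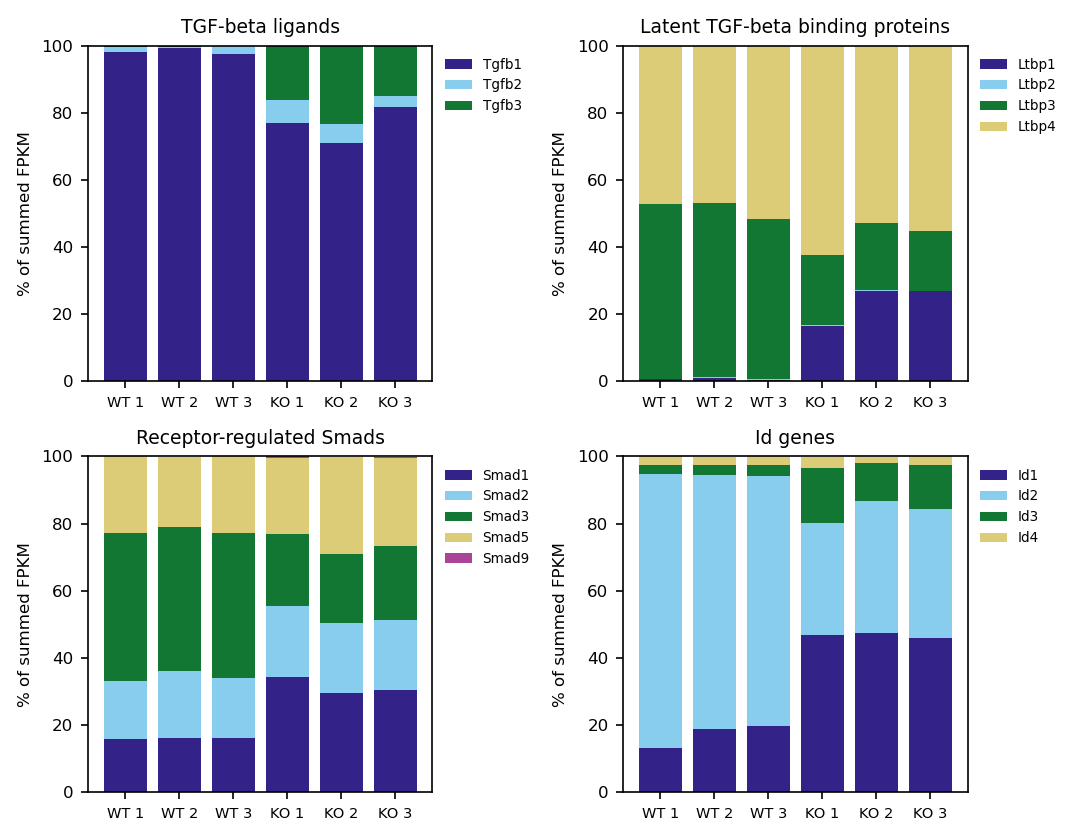
Share of the summed FPKM of 4 groups of genes (TGF-beta ligands, Ltbp proteins, receptor-regulated Smads and Id genes) in each of the 6 libraries, in percent, as stacked bars with 1 colour per gene. The WT bars resemble each other and so do the KO bars, with Id2 at 74.5% to 81.8% of the Id sum in WT and 33.3% to 39.3% in KO.

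Bmp2, a ligand with broad roles in epithelial and skeletal development, was the BMP that rose most. Bmp2 (chromosome 2, 133552159 to 133562896) stood at 7, 11 and 13 counts across WT and at 260, 179 and 243 across KO. Even the lowest KO library lay far above the highest WT library (log2 fold change 4.55, SE 0.272, adjusted p = 4.31e-06, edgeR). Bmp7 (chromosome 2, 172868012 to 172940321), the most abundant ligand of this group, had 363.2, 382.0 and 198.0 counts in the 3 WT libraries, compared with 726.2, 736.2 and 545.5 in KO. It rose in all 3 KO libraries, 2.3-fold on average (log2 fold change 1.2, SE 0.236, adjusted p = 0.00232, edgeR), which met the fold but not the p of the study threshold (4.08e-04 with the replicate number as a block, and 1.74e-06 in DESeq2). Bmp6 (chromosome 13, 38320483 to 38500314) had estimated counts of 177, 97 and 71 in WT against 223, 74 and 219 in KO. The groups overlapped and Bmp6 was not called (log2 fold change 0.70, SE 0.444, adjusted p = 0.203, edgeR), although without KO replicate 2 it was (log2 fold change 1.06, adjusted p = 0.0288).

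Among the rarer ligands of the group, Inhba, Gdf3, Gdf5 and Gdf15 rose from a few counts per library and Bmp3 fell. Inhba, which encodes the subunit of activin A, stood at 8.0, 10.1 and 12.4 counts across WT and at 37.1, 31.9 and 80.5 across KO, so that all KO libraries were higher and KO replicate 3 stood apart (log2 fold change 2.40, SE 0.434, adjusted p = 0.00151, edgeR). Gdf5 had at most 7 counts in WT and 13 to 17 in KO (log2 fold change 1.98, adjusted p = 0.00579, edgeR, and 2.63 without WT replicate 1). Inhbb, the other activin subunit, overlapped between groups and was not called (log2 fold change 0.34, SE 0.32, adjusted p = 0.385, edgeR). The summed FPKM of all 19 ligands of the group was 5.47 to 9.41 in WT and 16.6 to 21 in KO, and Bmp2 alone was 1.17% to 3.66% of it in WT and 15.5% to 18.5% in KO.

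For 3 ligands the call depended on single libraries or on the processing. Bmp3, a BMP that acts largely against the others, had 65.1, 50 and 36.1 counts in the 3 WT libraries, compared with 21.3, 23.8 and 32.0 in KO, with the nearest libraries of the groups close together (log2 fold change -0.86, SE 0.295, adjusted p = 0.0326, edgeR). Without WT replicate 1 its adjusted p was 0.135, without KO replicate 1 it was 0.0969, without KO replicate 2 0.0856, without WT replicate 2 0.0681, and with the replicate number as a block 0.0703. Gdf3 had estimated counts of 8.6, 5.7 and 0 in WT against 24.0, 17.1 and 10.5 in KO (log2 fold change 1.88, SE 0.697, adjusted p = 0.0432, edgeR). The values were low in every library, and the adjusted p was 0.141 without KO replicate 1, 0.0857 without KO replicate 2, 0.0734 without WT replicate 2 and 0.0583 without WT replicate 3, while the log2 fold change was 2.59 without WT replicate 1. With a correction for gene length (length offset) its adjusted p was 0.0672, and with no filter on low counts 0.0664. Gdf15, a stress-induced ligand, stood at 2, 16 and 5 counts across WT and at 30, 15 and 33 across KO (log2 fold change 1.85, SE 0.611, adjusted p = 0.0273, edgeR). By raw counts WT replicate 2 exceeded KO replicate 2, and the groups separated only after scaling by the TMM factors. Its adjusted p was 0.0774 without KO replicate 1, 0.0816 without KO replicate 3, 0.0746 without WT replicate 1 and 0.087 without WT replicate 3, and without WT replicate 2 its log2 fold change was 2.96. With the length offset it was not called (log2 fold change 1.24, adjusted p = 0.0982, edgeR), nor with the replicate block (adjusted p = 0.0547).

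The remaining 10 ligands of the group (Bmp4, Bmp5, Bmp8a, Bmp8b, Gdf1, Gdf6, Gdf7, Gdf9, Gdf11 and Inhbe) were not tested. Bmp5 had the highest count among them, 15.2, in WT replicate 1. The highest counts were 8.1 for Bmp8b, 7.0 for Bmp4, 7 for Gdf1 and 5 for Bmp8a. They were 3 for Gdf9, 2 for Gdf7, 2 for Gdf11, 1.9 for Inhbe and 1 for Gdf6. In the fit with no filter on low counts, these 10 were not called (adjusted p of 0.123 to 0.816, edgeR).

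Receptors were expressed throughout, and all 10 were tested. The TGF-beta receptor pair moved in opposite directions. Tgfbr1 (chromosome 4, 47353222 to 47414926), the type I kinase that phosphorylates Smad2 and Smad3, had 3093.6, 2992.8 and 2785.7 counts in the 3 WT libraries, compared with 646.5, 993.1 and 877.4 in KO. Its level was tight in WT and fell to 30.6% in KO, the largest fall in the family (mean ± SD 138 ± 5.1 CPM for WT against 42.1 ± 8.63 CPM for KO, n = 3 each, log2 fold change -1.71, SE 0.146, adjusted p = 2.84e-05, edgeR). Tgfbr2 (chromosome 9, 116087695 to 116175363), the type II kinase that binds the ligand first, had estimated counts of 351, 478 and 396 in WT against 970, 743 and 1101 in KO. Every KO library exceeded every WT library (log2 fold change 1.31, SE 0.171, adjusted p = 2.66e-04, edgeR). The ratio of Tgfbr1 to Tgfbr2 by FPKM was 7.34, 5.23 and 5.9 in the WT libraries and 0.561, 1.12 and 0.666 in the KO libraries. Tgfbr3 (chromosome 5, 107106570 to 107289595), or betaglycan, a co-receptor that presents TGF-beta and binds inhibins, stood at 1274, 963 and 1017 counts across WT and at 444, 363 and 348 across KO. It fell to 38.4% of WT with a wide gap between the groups (log2 fold change -1.38, SE 0.142, adjusted p = 7.10e-05, edgeR).

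Activin receptors changed less, and the BMP receptors Bmpr1a and Bmpr2 were not called. Acvr1b (chromosome 15, 101174125 to 101213678), the type I activin receptor, had 1892, 1714 and 1611 counts in the 3 WT libraries, compared with 1148, 740 and 979 in KO. It fell to 59.4% of WT without overlap (log2 fold change -0.75, SE 0.154, adjusted p = 0.00294, edgeR). Bmpr1a (chromosome 14, 34411068 to 34503461), a type I BMP receptor, had estimated counts of 2664, 2594 and 2348 in WT against 1813, 2275 and 2235 in KO. After scaling, its groups overlapped and it was not called (log2 fold change -0.16, SE 0.104, adjusted p = 0.218, edgeR). Acvr2b fell (-0.79, adjusted p = 0.00134) and Acvrl1, a type I receptor best known from endothelium, rose (0.99, adjusted p = 0.00663) on the log2 scale of the edgeR fit. Acvrl1 had 33 to 50 counts in WT and 64 to 81 in KO. Of the vessel markers, Pecam1 had 1 to 4 counts in WT and 14 to 16 in KO, while Kdr and Tek had at most 2 in any library. A part of vessel cells in the change of Acvrl1 was not tested. Acvr2a and the type II BMP receptor Bmpr2 had log2 fold changes of -0.12 and 0.14 and were not called, although their KO libraries all lay on one side of the WT libraries.

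Acvr1, another type I receptor, stood at 325, 401 and 398 counts across WT and at 564, 448 and 451 across KO. It was higher in every KO library (log2 fold change 0.49, SE 0.144, adjusted p = 0.017, edgeR), but the adjusted p was 0.0509 without KO replicate 1 and 0.0599 without WT replicate 1, and with the length offset it was 0.0597 (log2 fold change 0.33). The summed FPKM of the 10 receptors was 104 to 115 in WT and 76.2 to 78.5 in KO. The largest part of the WT sum came from Acvr1b (22.6% to 24.1%), Tgfbr1 (22.4% to 23.1%) and Bmpr1a (19.7% to 20.9%). In KO, Bmpr1a (20.3% to 26.8%) and Acvr1b (14.6% to 21.4%) remained, while Tgfbr1 held 6.99% to 11.3% and Tgfbr2 10.1% to 14%.

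**Figure D3:**
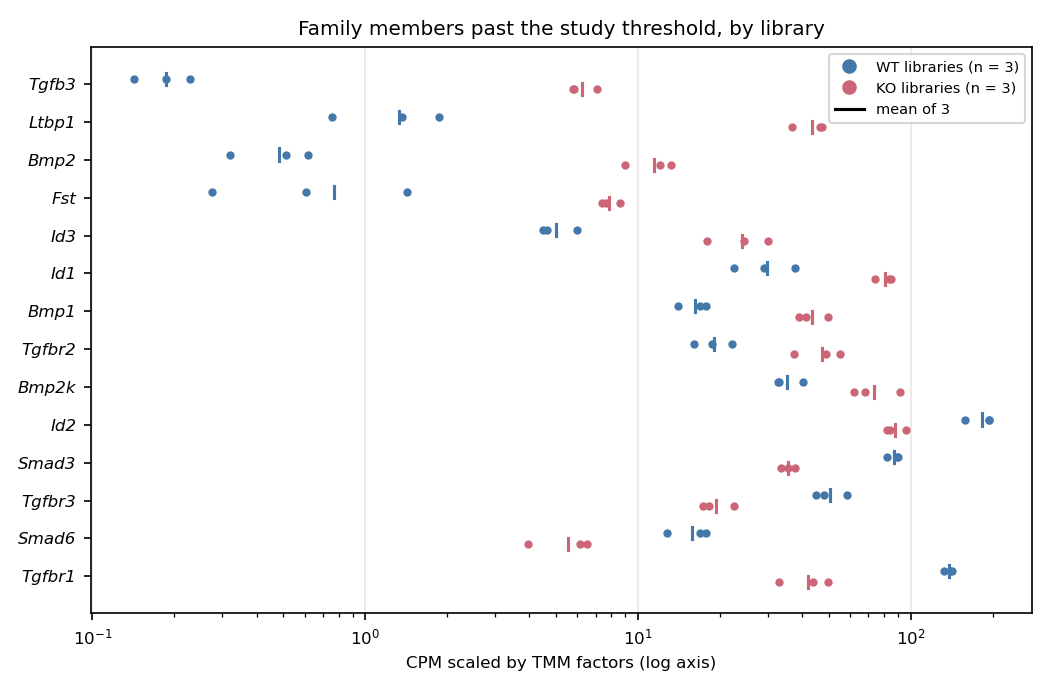
CPM scaled by TMM factors, on a log axis, of the 14 members past the study threshold in each WT library (blue) and each KO library (red), with a tick at the mean of the 3 libraries. No WT point overlaps a KO point of the same gene, as the selection of these genes by the study threshold makes likely. The widest gaps are those of Tgfb3, Ltbp1 and Bmp2.

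Among the signal transducers, Smad3 fell while its close relative Smad2 did not pass the test. Smad3 (chromosome 9, 63646766 to 63757994) had 1968, 1907 and 1735 counts in the 3 WT libraries, compared with 746, 667 and 711 in KO. Both groups were narrow, and KO was at 40.9% of WT (mean ± SD 87 ± 4.27 CPM for WT against 35.6 ± 2.17 CPM for KO, n = 3 each, log2 fold change -1.29, SE 0.0897, adjusted p = 9.66e-06, edgeR). Smad2 had 1332.3 to 1613.9 counts in WT and 1244.1 to 1316.7 in KO, which overlapped after scaling (log2 fold change -0.08, SE 0.0964, adjusted p = 0.485, edgeR). The BMP-regulated Smad1 rose 1.62-fold (log2 fold change 0.70, SE 0.113, adjusted p = 8.49e-04, edgeR), while Smad5 was not called (-0.05, SE 0.0901, adjusted p = 0.667). Smad9 was not tested and had estimated counts of 3.1, 0.5 and 2.9 in WT against 15.5, 6.8 and 10.2 in KO, with an adjusted p of 0.0231 (edgeR) when no filter was set. The FPKM ratio of Smad3 to Smad1 was 2.65 to 2.77 in WT and 0.626 to 0.722 in KO. Smad3 was 43% to 43.9% of the summed FPKM of the receptor-regulated Smads in WT and 20.5% to 21.9% in KO, while Smad1 went from 15.9% to 16.2% up to 29.6% to 34.5%.

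Smad4 (chromosome 18, 73631651 to 73703741), the partner of both branches and the most abundant Smad by FPKM, stood at 1880.4, 1929.4 and 1881.8 counts across WT and at 1380.7, 1363.4 and 1489.6 across KO. It was slightly lower in all KO libraries, at 80.2% of WT (log2 fold change -0.32, SE 0.0795, adjusted p = 0.00796, edgeR). The 2 inhibitory Smads moved apart. Smad6 (chromosome 9, 63953076 to 64022087), the next gene of the family along the chromosome from Smad3, had 370, 275 and 376 counts in the 3 WT libraries, compared with 121, 79 and 131 in KO. It fell to 35% of WT (log2 fold change -1.52, SE 0.212, adjusted p = 3.81e-04, edgeR). Smad7, which blocks both branches, rose from 135 to 204 counts in WT to 234 to 334 counts in KO (log2 fold change 0.82, SE 0.199, adjusted p = 0.00695, edgeR). By FPKM, Smad6 was 2 to 3.73 times as high as Smad7 in WT and 0.46 to 0.643 times as high in KO.

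The Smurf ubiquitin ligases showed small differences. Smurf1 (chromosome 5, 144876495 to 144965830) had estimated counts of 1510, 1676 and 1416 in WT against 1823, 1117 and 1382 in KO. Its KO libraries spread around the WT libraries, with no call and no stable sign (log2 fold change 0.02, SE 0.17, adjusted p = 0.928, edgeR). Smurf2 stood at 1380, 1306 and 1161 counts across WT and at 874, 933 and 1019 across KO. It fell to 79.3% of WT (log2 fold change -0.34, SE 0.096, adjusted p = 0.015, edgeR), but the adjusted p was 0.0619 without WT replicate 1.

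Of the extracellular traps, Fst alone was tested. Fst (chromosome 13, 114452262 to 114462047), or follistatin, which binds activins and some BMPs, had 6, 13 and 30 counts in the 3 WT libraries, compared with 146, 152 and 172 in KO. The KO libraries were close together while the WT libraries spread widely, and the log2 fold change came to 3.36 (SE 0.424, adjusted p = 2.18e-04, edgeR) and 4.16 without WT replicate 3. Nog (chromosome 11, 89300638 to 89302559), or noggin, had estimated counts of 0, 0 and 0 in WT against 11, 2 and 3 in KO. It was thus counted in the KO libraries alone and did not pass the filter. With no filter its adjusted p was 0.0246 (edgeR). Grem1 (chromosome 2, 113746164 to 113758785), or gremlin, had at most 1 count in any library.

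Id2 fell while Id1 and Id3 rose, and the sum of the Id genes overlapped between genotypes. Id2 (chromosome 12, 25093799 to 25096092), the member with the highest FPKM of the whole family in WT, stood at 4234, 3392 and 4105 counts across WT and at 1624, 1677 and 1925 across KO. It fell to 48% of WT (mean ± SD 182 ± 21 CPM for WT against 87.4 ± 7.41 CPM for KO, n = 3 each, log2 fold change -1.06, SE 0.113, adjusted p = 8.72e-05, edgeR). Id1 (chromosome 2, 152736234 to 152738260) had 491, 621 and 793 counts in the 3 WT libraries, compared with 1668, 1470 and 1677 in KO. Its KO libraries all exceeded the highest WT library by far (log2 fold change 1.44, SE 0.173, adjusted p = 1.66e-04, edgeR). Id3 (chromosome 4, 136143822 to 136147320) had estimated counts of 101, 96 and 126 in WT against 590.1, 356 and 491 in KO, again without overlap (log2 fold change 2.26, SE 0.212, adjusted p = 4.53e-05, edgeR). Id4 overlapped between groups, with 152 to 192 counts in WT and 112 to 215 in KO (log2 fold change 0.03, SE 0.235, adjusted p = 0.911, edgeR).

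The FPKM ratio of Id2 to Id1 was 6.27, 3.97 and 3.76 in the WT libraries and 0.708, 0.829 and 0.834 in the KO libraries, so the order of the 2 genes turned in every KO library. The summed FPKM of the 4 Id genes was 172 to 210 in WT and 168 to 190 in KO, and these ranges overlapped. Id1 went from 13.1% to 19.8% of the sum up to 46% to 47.4%, and Id3 from 2.63% to 3.08% up to 11.3% to 16.3%. The Id transcripts are short, and with the read counts corrected for gene length the log2 fold changes of Id1, Id3 and Id2 were 0.67, 1.51 and -1.64, each still called though Id1 then missed the fold of the study threshold, in a fit whose median over all genes was -0.27.

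Bmp1 and Bmp2k are named like the ligands but have other functions. Bmp1 (chromosome 14, 70474258 to 70520713), a metalloprotease that processes procollagens and cleaves the antagonist chordin, stood at 388, 363 and 295 counts across WT and at 986, 822 and 778 across KO. Every KO library held at least 2 times the counts of any WT library (log2 fold change 1.42, SE 0.137, adjusted p = 5.34e-05, edgeR). Bmp2k (chromosome 5, 96997689 to 97092152), a BMP2-inducible kinase, had 879.7, 705.9 and 688.1 counts in the 3 WT libraries, compared with 1801.6, 1348.6 and 1242.9 in KO. It rose 2.09-fold, just past the fold of the study threshold (log2 fold change 1.06, SE 0.16, adjusted p = 5.68e-04, edgeR).

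Of the 14 members at the study threshold, 9 kept that call when any single library was left out (Tgfb3, Ltbp1, Bmp2, Tgfbr1, Tgfbr3, Smad3, Id1, Id3 and Bmp1). The others stayed at an adjusted p under 0.05 but missed the stricter rule at least once. For Tgfbr2 the adjusted p was 0.0015 without KO replicate 1, 0.00108 without KO replicate 3, 0.00145 without WT replicate 1, 0.00161 without WT replicate 3 and 0.00138 with the replicate block. For Smad6 it was 0.00171 without KO replicate 1, 0.00226 without WT replicate 1 and 0.00207 without WT replicate 3. For Fst it was 0.00114 without KO replicate 1 and 0.00102 without KO replicate 3. These values sit just above the stricter limit. Id2 missed the fold without WT replicate 3. Bmp2k missed the fold without KO replicate 1 (0.88) and the p without KO replicate 2 (0.00157) and without WT replicates 1 (0.0015), 2 (0.00237) and 3 (0.00367). It also missed the fold with total counts only (0.96) and in limma on log2(FPKM + 1) (0.87) and log2(FPKM + 0.1) (0.97).

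The rest of the pathway was examined with a list of 75 further genes ordered by role, of which 71 were analysed here and 53 were tested. In this list 34 genes (64.2%) were called, 22 higher and 12 lower in KO, which is near the 62.0% of all genes. At the study threshold 16 (30.2%) were called, 11 higher and 5 lower, where the share over all genes was 19.8% (11.6% higher and 8.24% lower). Of the genes tested, 7 reached the level of the filter in every KO library but not in every WT library, and 4 of these are among the 16, so these counts too are not evidence of a direction. The plot shows 15 of these genes by library, whose WT and KO values did not overlap, as their selection by the study threshold makes likely. Over the whole list, the KO libraries lay wholly above or below the WT libraries for 37 tested genes (69.8%). The share over all genes was 68.6%.

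**Figure D4:**
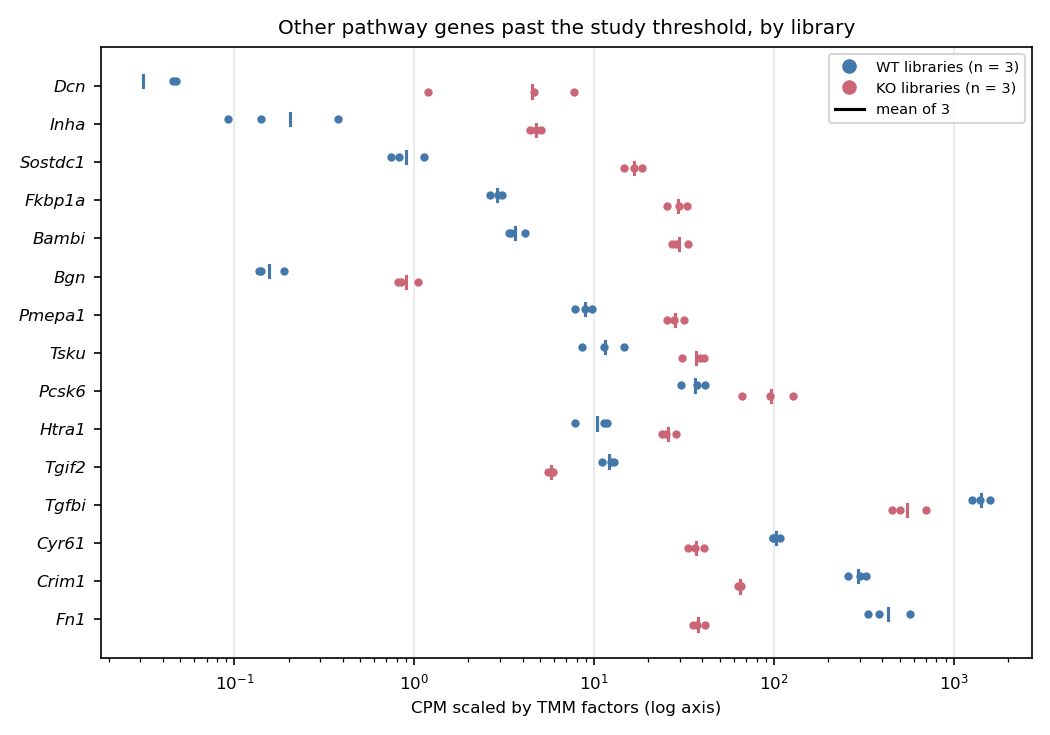
CPM scaled by TMM factors, on a log axis, of 15 other pathway genes past the study threshold in each WT library (blue) and each KO library (red), with a tick at the mean of 3. WT replicate 2 had 0 counts of Dcn and is not drawn for that gene, though its value is in the mean. Fn1 and Crim1, at the bottom, fell from means of 429 and 295 CPM to 38 and 64.5 CPM, while Sostdc1, Bambi and Fkbp1a rose.

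Of the extracellular antagonists and modulators, 6 of 10 tested (60%) were called at the study threshold, where the share over all genes was 19.8%. Among them were Dcn and Bgn, which could enter the test through their KO level. Sostdc1, a secreted antagonist of BMP and Wnt ligands, had estimated counts of 18, 16 and 24 in WT against 364, 294 and 335 in KO (log2 fold change 4.20, SE 0.196, adjusted p = 1.48e-06, edgeR). Crim1, a transmembrane protein that binds BMPs, stood at 6586.5, 5523.1 and 6889.0 counts across WT and at 1241.4, 1315.7 and 1296.8 across KO. It was the one gene of this role to fall past the study threshold, to 21.9% of WT (log2 fold change -2.19, SE 0.111, adjusted p = 2.05e-06, edgeR). Tsku, a secreted leucine-rich protein that binds BMPs, rose 3.19-fold and Htra1, a protease that inhibits TGF-beta signalling, rose 2.51-fold (adjusted p = 1.60e-04 and 2.16e-04, edgeR, with 0.00108 for Htra1 without KO replicate 3). The matrix proteoglycans Dcn and Bgn, which bind TGF-beta, rose from very few counts, Dcn from 1, 0 and 1 to 153, 24 and 93 and Bgn from 3.0, 3.0 and 4.0 to 16.4, 21.1 and 17.2 (adjusted p = 4.20e-04 and 5.68e-04, edgeR). Dcn is also on the list of keratocyte and fibroblast markers, whose sums with and without Pdgfra are given above. Bgn missed the study threshold without any 1 of the 6 libraries (adjusted p of 0.00217 to 0.0046), and Dcn without KO replicates 1 (0.00112) and 3 (0.00134) and without WT replicates 1 (0.00284), 2 (0.00166) and 3 (0.00272).

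Among other ligands and receptors, Inha, the subunit that makes inhibins, had 2, 3 and 8 counts in the 3 WT libraries, compared with 94, 101 and 88 in KO. The KO libraries were all far above WT (log2 fold change 4.51, SE 0.392, adjusted p = 3.06e-05, edgeR, or 5.30 without WT replicate 3). Bambi, a decoy receptor without a kinase, had estimated counts of 75, 72 and 87 in WT against 534, 666.2 and 573 in KO, an 8.15-fold rise (log2 fold change 3.03, SE 0.143, adjusted p = 1.55e-06, edgeR). Of the genes that activate latent TGF-beta or process ligands, the convertase Pcsk6 rose 2.64-fold, with KO replicate 2 lowest at 1322 counts and the other two KO libraries at 2504 and 1907 (adjusted p = 7.75e-04, edgeR). It missed the study threshold without each library other than KO replicate 2, at an adjusted p of 0.00152 to 0.00424.

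Of the 19 intracellular regulators, 10 (52.6%) were called, 5 in each direction, and 3 (15.8%) passed the study threshold, both below the shares of all genes. Fkbp1a, which binds the type I receptors and keeps them inactive, stood at 67, 63 and 56 counts across WT and at 500, 589 and 662 across KO (log2 fold change 3.34, SE 0.147, adjusted p = 1.17e-06, edgeR). Pmepa1, a TGF-beta target that restrains Smad signalling, rose 3.2-fold (adjusted p = 1.87e-05, edgeR). Tgif2, a co-repressor of Smads, fell to 47.8% of WT (adjusted p = 1.54e-04, edgeR, and 0.00112 without WT replicate 1).

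Genes known as targets of TGF-beta or BMP did not move in 1 direction. Of 11 tested, 8 (72.7%) were called, 5 higher and 3 lower, against 62.0% of all genes. The study threshold was passed by 4 (36.4%), among them the 3 that fell, against 19.8% of all genes. Among those that rose, Timp1 (13.2-fold, adjusted p = 0.00153), Ctgf (4.84-fold, 0.00146) and Msx2 (3.8-fold, 0.00719, edgeR) missed its p. Snai2 (1.87-fold, adjusted p = 5.51e-04, edgeR) missed its fold. In DESeq2, Timp1 (adjusted p = 4.23e-08), Ctgf (1.70e-06) and Msx2 (2.63e-04) passed the study threshold. Timp1 also passed it with the replicate block (7.39e-04, edgeR), and Ctgf in limma on log2(FPKM + 0.1) (9.91e-04). Timp1 could enter the test through its KO level. Fn1, which encodes fibronectin, had estimated counts of 12390, 7191 and 8130 in WT against 702, 741 and 830 in KO. It fell to 8.87% of WT, although WT replicate 1 was higher than the other two (log2 fold change -3.50, SE 0.205, adjusted p = 4.03e-06, edgeR). Tgfbi, a matrix protein abundant in corneal epithelium and named for its induction by TGF-beta, stood at 30603, 34033 and 26557 counts across WT and at 8938, 13907 and 10138 across KO. It fell to 39% of WT (log2 fold change -1.36, SE 0.178, adjusted p = 2.69e-04, edgeR), with an adjusted p of 0.0012 without KO replicate 1, 0.00167 without KO replicate 3 and 0.00144 without WT replicate 1. Cyr61, a matricellular protein, fell to 36.1% of WT (adjusted p = 9.33e-06, edgeR).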

How the data were processed

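RNA was measured in 3 WT and 3 KO samples of separated corneal epithelium (independent biological samples per the methods, with the number of mice in each not given), grouped by the genotype labels. The methods of the study describe removal of ribosomal RNA and single-end BGI sequencing, while the labels name an Illumina kit. After read filtering (SOAPnuke) and alignment (Bowtie2 2.2.5), RSEM 1.2.12 gave the authors the estimated counts, FPKM and TPM per gene that they deposited. RSEM divides reads that fit several genes, and 20 members had estimated counts that were not whole in at least 1 library. Whether strand was used is not given in the sources used here, so genes that overlap may share reads. The submitters' processing notes name mm9, but the deposited coordinates carry GRCm38 chromosome accessions, and all genes matched by identifier overlapped their GRCm38.p6 RefSeq position. Fold changes (log2) and p-values of a DESeq2 comparison by the authors are in the deposited table and were not used, nor was TPM.

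Estimated counts were rounded for the quasi-likelihood test of edgeR 4.0.16 (R 4.3.3) with TMM factors, filterByExpr and a genotype term alone, and p-values were adjusted by Benjamini-Hochberg over 13305 genes. The SE is |log2 fold change| over the root of F. FPKM served for levels between genes. With 3 libraries per group, p-values set the difference between genotypes against the spread between these samples, moderated over the genes tested. Floors cover counting error only. The test was tried on simulated data with known changes. Members, lists and motifs were chosen with earlier results of these data known. Per-library values are given for members at the study threshold, for the 3 of highest mean FPKM in each role, and for those whose call was lost when 1 library was left out, while pathway genes are named at the study threshold, apart from 1 that is counted but not reported here. A few further members are named with their values, since every member is accounted for. Target genes that rose but missed the study threshold are named as well. The alternatives comprised DESeq2 1.42.0, robust dispersion, RLE factors, unscaled totals (total counts only), no filter, a minimum mean count of 50, a length offset, limma 3.58.1 on log2(FPKM + 1) and log2(FPKM + 0.1), a replicate block and leaving out each library. Chrdl2, Sost, Mstn and Hjv of the pathway list and Kera, Cdh5 and Emcn of the marker lists were not analysed here. Tables and plots were made with Python 3.11.15, pandas 2.3.3 and matplotlib 3.10.9.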

Additional observations from a re-analysis of the deposited data

How the results depend on the processing

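Over the 16 alternatives the number of members called was between 26 and 33, the number at the study threshold between 10 and 16, and the number of pathway genes called between 25 and 40. Without 1 library these were 28 to 31, 10 to 13 and 34 to 39. Of 665 values of single genes under an alternative, 627 kept their direction and their side of the threshold, 21 lost the call, 1 gained it and 16 changed sign. The lost calls were those of Bmp3, Gdf3, Gdf15, Acvr1 and Smurf2. Those of Gdf3, Gdf15 and Acvr1 were also lost with the length offset, and that of Gdf3 with no filter, which in turn called 2 untested members, Smad9 and Nog (adjusted p = 0.0231 and 0.0246, edgeR). All changes of sign were in genes without a call. Smurf1 (0.02 in the reported fit) was at -0.01 with the length offset, -0.10 and -0.11 in limma on log2(FPKM + 1) and log2(FPKM + 0.1), -0.08 with total counts only, and between -0.19 and 0.17 without 1 library, below 0 without KO replicate 1 and without WT replicate 3 (-0.01). Id4 (0.03) was at -0.44, -0.08, -0.11 and -0.06 under the first 4 of these, and between -0.23 and 0.24 without 1 library, below 0 without KO replicate 1 and without WT replicate 2 (-0.04). Smad2 was at 0.01 without WT replicate 2 and Smad5 at 0.01 without KO replicate 1. Their cause was not tested, but the length offset moved the median of all genes to -0.27. Of the pathway genes named as past the study threshold, Bgn missed it with the length offset, no filter, the block and limma on log2(FPKM + 1). Pcsk6 missed it with robust dispersion, the block and both limma fits, and Dcn and Tgif2 in limma on log2(FPKM + 1). With limma the pseudocount shrinks low genes by construction, so Tgfb3 was at 1.39 on log2(FPKM + 1). Same-numbered libraries come from mice of different genotype, and their deviations correlated at -0.00998 to 0.0606. With the replicate block, 30 members were called (Bmp3 and Gdf15 were not, adjusted p = 0.0703 and 0.0547), 14 at the study threshold (Tgfbr2 missed it and Bmp7 gained it) and 33 pathway genes, and Smurf1 and Id4 were at -0.01 and -0.0021.

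With 3 libraries a genotype, the members left untested had at most 16 counts in any library, and those of few WT counts have folds that rest on those counts. Genotype and epithelial makeup cannot be told apart in these libraries.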
